A study of Homo sapiens with 9 samples.

Results

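The methionine cycle and the transsulfuration pathway were followed with 10 genes in RNA-seq data of PC-3 cells treated with decitabine alone or together with S-adenosylmethionine (SAM). The genes were MAT2A and MAT2B, which make SAM, GNMT and NNMT, which use it, AHCY, which clears the product of its use, MTR, MTRR and BHMT2, which return homocysteine to methionine, and CBS and CTH, which pass homocysteine on to cysteine. They were chosen by symbol, as genes that make, use or recycle the compound added to the medium, and each symbol matched 1 of the 60617 Ensembl gene identifiers in the count files. All 10 were among the 18532 genes that passed the filter on low counts, but GNMT and BHMT2 passed it through the treated libraries, in which their counts were higher.

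PC-3, derived from a human prostate cancer, is an established cell line that grows without androgens. The 9 libraries came from 3 control samples, which received the vehicle (sulfuric acid and ethanol in PBS), 3 samples treated with 1 µM of decitabine and 3 samples that received a combination of 1 µM of decitabine and 200 µM of SAM, in each case for 5 days. The last are called decitabine plus SAM, and their libraries combination replicates 1 to 3. Doses and vehicle are those of the study's methods, and all samples shared the same medium, which was changed every other day. SAM given alone was not analysed here, so its effect was seen only on top of decitabine. The study's methods do not say whether the samples with decitabine alone also received the vehicle. In differences between the treatments, SAM and the vehicle therefore cannot be told apart.

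In the methionine cycle, methionine and ATP are joined to SAM, the methyl donor of most methyltransferases. After the methyl group is handed on, S-adenosylhomocysteine remains, which inhibits many methyltransferases and is split into adenosine and homocysteine. Homocysteine is either remethylated to methionine or condensed with serine in the transsulfuration pathway, which ends in cysteine, a building block of glutathione. Decitabine is a cytidine analogue that is built into DNA and traps DNA methyltransferases, which take their methyl groups from SAM.

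Libraries held between 21934307 and 22489684 estimated counts. Expression is given as CPM, counts scaled to a common library size, after TMM scaling, whose factors were 0.895 to 0.902 in the controls and 1.033 to 1.078 in the treated samples. With TMM the log2 fold change had a median over all genes of 0.03 with decitabine, 0.05 with decitabine plus SAM and 0.00 between the treatments. With scaling by library size alone, these medians were 0.28, 0.27 and -0.02, so that every change against the controls is a change relative to the bulk of the transcriptome. The epithelial markers KRT8, KRT18 and EPCAM were expressed in every library, while KLK3, the gene of prostate-specific antigen, had no count in any library. KRT8 averaged 119.7 CPM in controls, 264.4 CPM under decitabine and 208.4 CPM under decitabine plus SAM (log2 fold change 1.14 and 0.80, adjusted p = 1.56e-08 and 5.08e-07), and KRT18 425.8, 357.8 and 315.8 CPM (-0.25 and -0.43, adjusted p = 0.0136 and 0.000313), so that these epithelial markers moved in opposite directions. All 3 markers of other cell types, PTPRC (1 to 2 counts in the controls, 13 to 30 in treated samples), DCN (0 to 2 and 21 to 38) and PECAM1 (197 to 206 and 700 to 990) had more counts in all 6 treated libraries than in any control, and their part in the results below was not tested. In bulk RNA, a change in the number of cells of a type and a change in the RNA per cell cannot be told apart.

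Decitabine lowered 6 of the 10 genes (AHCY, CBS, MAT2A, MAT2B, MTR and MTRR) and raised 3 (BHMT2, CTH and NNMT), with GNMT not called, at an adjusted p under 0.05 in edgeR's quasi-likelihood test. Of all 18532 genes tested, 68.8% were called in this comparison, 36.3% as higher and 32.5% as lower. With decitabine plus SAM, the same 6 genes were lower and 4 were higher (BHMT2, CTH, GNMT and NNMT), against 67.2% of all genes called, 35.9% as higher and 31.3% as lower. Among the genes called as higher, BHMT2 and GNMT had passed the filter through the treated libraries. The median log2 fold change of the 10 genes was -0.37 with decitabine and -0.48 with decitabine plus SAM. Both comparisons used the same 3 controls. With decitabine, 8 of the 10 genes had treated libraries that did not overlap the controls (72.9% of all genes), and with decitabine plus SAM all 10 did (71.6%). Between the treatments, only MTR was called, as lower with decitabine plus SAM, and 15.7% of all genes were called (7.67% higher and 8.02% lower). Libraries of one treatment all lay on the same side of the other for 4 of the 10 (MAT2B, MTR, BHMT2 and CBS), against 34% of all genes. The shares called among these genes are read against those backgrounds, and no test of the list was made.

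**Figure D1:**
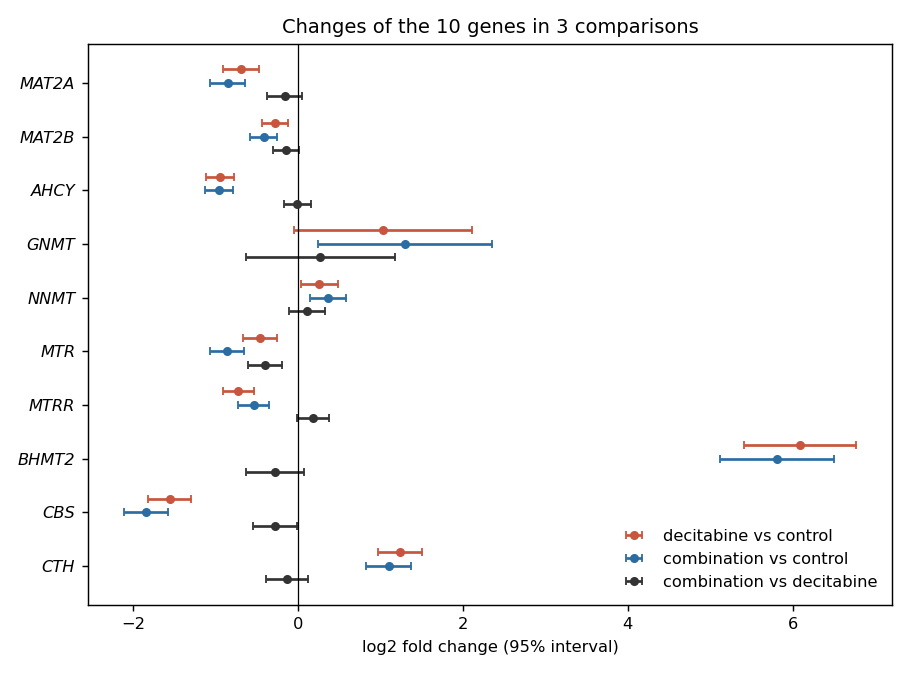
Log2 fold change of each of the 10 genes (x axis) with its 95% interval, for decitabine against control (red), decitabine plus SAM against control (blue) and decitabine plus SAM against decitabine (black). Both treatments lie on the same side of 0 for every gene, and the black interval of MTR lies below 0 with an adjusted p of 0.0146, while that of CBS also ends below 0 but has an adjusted p of 0.145.

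MAT2A encodes the catalytic subunit of the methionine adenosyltransferase found outside the liver, the enzyme that makes SAM (chr2:85539168-85545281, plus strand, GRCh38, GENCODE 44). It stood at 454.2, 511.4 and 517.2 CPM in the controls, at 362.5, 262.3 and 292.7 CPM with decitabine and at 276.1, 278.1 and 265.0 CPM with decitabine plus SAM. Every treated library was below every control, and the spread with decitabine (305.9 ± 51.4 CPM, SD, n = 3) came from its highest library and covered all 3 values of decitabine plus SAM (273.1 ± 7.04). The log2 fold change was -0.69 ± 0.10 (SE) with decitabine (adjusted p = 2.94e-05) and -0.86 ± 0.10 with decitabine plus SAM (adjusted p = 4.19e-06). Between the treatments it was -0.16 (95% interval -0.38 to 0.05, adjusted p = 0.293).

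MAT2A overlaps GGCX, the gamma-glutamyl carboxylase, on the opposite strand, and 11.7% of the stretches of 31 bases in its transcripts also occur in GGCX. Whether the counting used strand is not given in the sources used here. GGCX had 865 to 910 counts per control, 1401 to 1474 with decitabine and 982, 887 and 1202 with decitabine plus SAM, the second of which lay within the controls. MAT2A had 9147 to 10477 counts per control, 6219 to 8574 with decitabine and 6222 to 6340 with decitabine plus SAM.

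MAT2B, the regulatory subunit of the same enzyme (chr5:163503114-163519558, plus strand), changed less. Its level was 80.24, 71.14 and 70.64 CPM in the controls, 58.73, 63.53 and 61.11 CPM with decitabine and 58.13, 54.20 and 53.71 CPM with decitabine plus SAM. The 3 groups did not overlap, with the controls on top and decitabine plus SAM at the bottom. The log2 fold changes were -0.28 ± 0.07 (adjusted p = 0.00417) and -0.42 ± 0.07 (adjusted p = 0.000175), and the difference between the treatments was -0.14 (95% interval -0.30 to 0.02, adjusted p = 0.206). With scaling by library size alone, the change with decitabine was -0.03 (adjusted p = 0.733).

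AHCY, adenosylhomocysteinase, is the only route by which cells break down S-adenosylhomocysteine (chr20:34280268-34311802, minus strand). It was the most abundant of the 10 genes per kilobase, and it had nearly the same level in the 3 controls, 589.4, 587.3 and 587.1 CPM. With decitabine it stood at 319.9, 305.2 and 286.7 CPM and with decitabine plus SAM at 326.4, 309.0 and 271.3 CPM. All 6 treated libraries were thus far below the controls, and the treatments covered the same range. Under decitabine the log2 fold change came to -0.95 ± 0.08 (adjusted p = 1.08e-07) and -0.96 ± 0.08 with decitabine plus SAM (adjusted p = 1.04e-07). Between the treatments it was -0.01 with a 95% interval of -0.18 to 0.16 (adjusted p = 0.958).

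**Figure D2:**
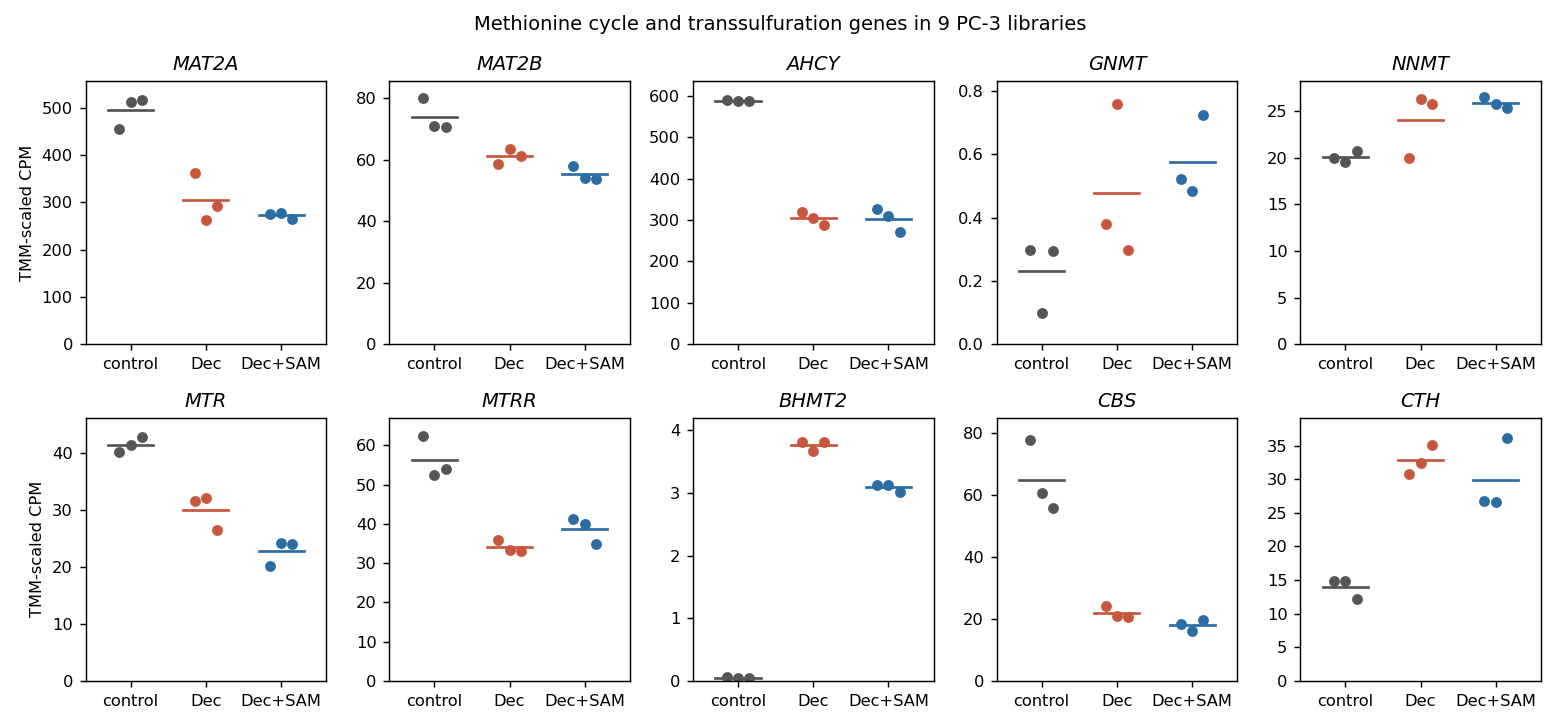
TMM-scaled CPM (y axis, from 0, a different scale for each gene) of the 10 genes in the controls (grey), with decitabine (Dec, red) and with decitabine plus SAM (Dec+SAM, blue), 1 point per library and a line at the mean of 3. AHCY, MAT2A, MTR, MTRR and CBS fell well below the controls in every treated library, CTH rose in every treated library, and BHMT2 stood near 0 in the controls.

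Of the methyltransferases that draw on SAM, GNMT and NNMT moved little in absolute terms. GNMT methylates glycine and is known as a regulator of the SAM level in the liver (chr6:42960754-42963880, plus strand). It was close to the detection limit here, with 6, 2 and 6 counts in the controls, 9, 18 and 7 counts with decitabine and 12, 11 and 17 counts with decitabine plus SAM. Decitabine replicate 3 lay within the range of the controls, whereas all 3 libraries of decitabine plus SAM exceeded all controls. The summed counts, 14 in the controls, 34 with decitabine and 40 with decitabine plus SAM, gave depth-corrected ratios of 2.07 (95% interval 1.08 to 4.17) and 2.49 (1.33 to 4.96), which cover counting error only. In the fit, GNMT, which passed the filter through the treated libraries, had log2 fold changes of 1.03 ± 0.51 (adjusted p = 0.0845) and 1.30 ± 0.49 (adjusted p = 0.0309). The second call was lost without control replicate 2 (0.94, adjusted p = 0.132) and without combination replicate 3 (1.10, adjusted p = 0.103), while the value with decitabine was 0.53 without decitabine replicate 2 (adjusted p = 0.419), 0.67 without control replicate 2 (adjusted p = 0.286) and 1.28 without decitabine replicate 3, where it was called (adjusted p = 0.0461). GNMT lies opposite to PEX6 on the other strand, which had 489 to 658 counts per library, but none of its 31-base stretches occurs in another gene.

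NNMT, which methylates nicotinamide and is highly expressed in many tumours, was present at 19.96, 19.56 and 20.78 CPM in the controls (chr11:114257787-114313536, plus strand). With decitabine it had 20, 26.32 and 25.83 CPM and with decitabine plus SAM 26.56, 25.78 and 25.34 CPM. Decitabine replicate 1 lay within the controls, and the other 5 treated libraries lay above them. Its log2 fold change under decitabine was 0.26 ± 0.10 (adjusted p = 0.0367) and 0.37 ± 0.10 with decitabine plus SAM (adjusted p = 0.00579). The change with decitabine was past the threshold in 3 of 9 fits that left out 1 library, and was lost in the others, with values of 0.18 without decitabine replicate 2 (adjusted p = 0.177), 0.20 without decitabine replicate 3 (0.127), 0.24, 0.23 and 0.27 without control replicate 1, 2 or 3 (0.0885, 0.116 and 0.0591) and 0.25 without combination replicate 2 (0.0564).

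Both partners of the cobalamin-dependent route from homocysteine to methionine fell. MTR, methionine synthase, transfers a methyl group from methyl-folate through its cobalamin cofactor (chr1:236795260-236921278, plus strand). Its level was 40.16, 41.52 and 42.90 CPM in the controls, 31.63, 32.14 and 26.51 CPM with decitabine and 20.19, 24.20 and 24.07 CPM with decitabine plus SAM. The groups formed 3 steps without overlap, and the log2 fold change under decitabine was -0.46 ± 0.10 (adjusted p = 0.000555) and -0.86 ± 0.10 with decitabine plus SAM (adjusted p = 2.31e-06). With scaling by library size alone, the change with decitabine was -0.22 (adjusted p = 0.0553).

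MTR was lower with decitabine plus SAM than with decitabine alone, by a log2 fold change of -0.40 ± 0.10 (adjusted p = 0.0146), a 1.32-fold difference. This call held in 6 of 9 fits that left out 1 library. Without decitabine replicate 1 the value was -0.36 (adjusted p = 0.051), without decitabine replicate 2 it was -0.35 (adjusted p = 0.0816), and without combination replicate 1 it was -0.32 (adjusted p = 0.0631). In those fits, therefore, none of the 10 genes was called between the treatments.

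MTRR, methionine synthase reductase, reactivates MTR when its cofactor has been oxidised (chr5:7851186-7906025, plus strand). Its fitted change between the treatments lay above 0, where that of MTR lay below it. It had 62.36, 52.48 and 53.91 CPM in the controls, 35.90, 33.28 and 32.99 CPM with decitabine and 41.19, 39.99 and 34.89 CPM with decitabine plus SAM, so that the treated groups overlapped well below the controls. The log2 fold change was -0.72 ± 0.09 (adjusted p = 5.98e-06) and -0.54 ± 0.09 (adjusted p = 9.34e-05), with 0.18 between the treatments (95% interval -0.01 to 0.38, adjusted p = 0.18). FASTKD3 overlaps MTRR on the other strand and also had fewer counts in treated libraries, with 349 to 415 per control, 240 to 288 with decitabine and 283 to 339 with decitabine plus SAM, and its part in the values of MTRR was not tested. Per kilobase of transcript, the ratio of MTR to MTRR was 0.229 ± 0.027 in the controls, 0.272 ± 0.025 with decitabine and 0.183 ± 0.031 with decitabine plus SAM (SD, n = 3). The ratios of the treated groups did not overlap, at 0.247 to 0.297 against 0.151 to 0.212. An exact permutation test of 3 against 3 libraries cannot go below a two-sided p of 0.1, so no such test was used for these ratios.

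BHMT2 was the gene with the greatest fold change of the 10. It encodes a methyltransferase that passes a methyl group from S-methylmethionine to homocysteine, without folate or cobalamin (chr5:79069767-79090069, plus strand). Its 250 bases before the RefSeq start (GRCh38.p14) held 34 CG dinucleotides, the sites that DNA methyltransferases act on. The stretch of 92 bases next to the start that carries no annotated exon, chr5:79069675-79069766 on the plus strand, is shown with each CG in capitals. Such stretches are shown for the genes called with a log2 fold change over 1, up or down, against the controls. Methylation at these sites was not measured in the data used here, and its part in the changes was not tested.

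BHMT2: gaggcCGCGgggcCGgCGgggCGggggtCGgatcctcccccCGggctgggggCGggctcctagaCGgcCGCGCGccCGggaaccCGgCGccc

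Each control library held 1 count of BHMT2. With decitabine it had 3.81, 3.67 and 3.81 CPM and with decitabine plus SAM 3.14, 3.13 and 3.02 CPM, close agreement between libraries of a group and no overlap between any groups. Against 3 counts over all controls there were 267 with decitabine, a depth-corrected ratio of 75.7 (95% counting interval 25.6 to 370), and 214 with decitabine plus SAM, a ratio of 62.3 (21.0 to 304). The fitted log2 fold changes were 6.09 (adjusted p = 1.21e-09) and 5.81 (adjusted p = 2.61e-09), which depend on the prior count of the fit. Because BHMT2 passed the filter only through the treated libraries, these p-values are not separate support for its rise. With decitabine plus SAM BHMT2 was 0.28 lower on the log2 scale than with decitabine (95% interval -0.63 to 0.07, adjusted p = 0.261).

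Even after this rise, BHMT2 stayed a gene of low level. Per kilobase it reached 1.45 CPM with decitabine and 1.19 CPM with decitabine plus SAM, against 2.85 and 2.16 CPM of MTR. The ratio of BHMT2 to MTR per kilobase was 0.0052 in the controls, 0.511 ± 0.063 under decitabine and 0.554 ± 0.066 with decitabine plus SAM. DMGDH, dimethylglycine dehydrogenase, lies on the other strand, with an annotated range (chr5:78997564-79236038) that spans the whole of BHMT2. It had 23 to 38 counts in the controls and 10 to 17 in the treated libraries, opposite to BHMT2. The close relative BHMT, which uses betaine, had 2 counts over all controls, 9 with decitabine and 8 with decitabine plus SAM and was not tested. Of the 31-base stretches of BHMT2, 12.6% occur in transcripts of other genes (4419 genes in all). The largest share with a single gene was the 3.91% that occur in BHMT.

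The transsulfuration enzymes moved in opposite directions, CBS down and CTH up. CBS, cystathionine beta-synthase, condenses homocysteine with serine and commits it to the pathway, and CTH, cystathionine gamma-lyase, cleaves the product to cysteine. The CBS gene lies on chr21:43053191-43076943 (minus strand) and the CTH gene on chr1:70411218-70439851 (plus strand). Their upstream stretches without annotated exons are shown in the same way, chr21:43076379-43076627 (minus strand) for the CBS start with the most CG and chr1:70411018-70411217 (plus strand) for CTH.

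CBS: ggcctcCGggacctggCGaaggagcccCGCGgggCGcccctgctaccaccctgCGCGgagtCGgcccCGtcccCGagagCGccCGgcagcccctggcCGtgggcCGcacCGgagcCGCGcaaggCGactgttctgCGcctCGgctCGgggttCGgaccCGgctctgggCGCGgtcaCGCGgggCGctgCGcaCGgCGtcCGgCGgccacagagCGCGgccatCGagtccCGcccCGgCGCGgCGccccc
CTH: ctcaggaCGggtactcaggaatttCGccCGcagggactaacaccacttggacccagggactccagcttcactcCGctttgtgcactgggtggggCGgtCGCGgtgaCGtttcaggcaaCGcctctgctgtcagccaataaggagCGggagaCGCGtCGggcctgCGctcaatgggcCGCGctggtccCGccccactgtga

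The stretch shown for CBS held 41 CG in 249 bases and that for CTH 17 in 200. For GNMT, the remaining gene with a called log2 fold change over 1, all 250 bases were free of exons (chr6:42960504-42960753, plus strand) and held 18 CG.

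GNMT: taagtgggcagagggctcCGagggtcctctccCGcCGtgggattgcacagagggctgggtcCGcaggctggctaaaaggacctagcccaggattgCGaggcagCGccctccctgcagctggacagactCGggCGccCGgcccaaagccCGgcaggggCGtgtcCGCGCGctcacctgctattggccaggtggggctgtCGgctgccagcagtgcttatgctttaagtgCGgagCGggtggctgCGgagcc

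Over the 300 bases of the RefSeq promoter table (250 before and 50 after a start, GRCh38.p14), the starts of BHMT2, CTH and GNMT held 38, 26 and 24 CG, and the CBS start shown held 50. Of 35116 promoters in the table, whose median was 14, 9.91%, 30.1%, 33.9% and 1.29% held at least as many. The other starts of CBS held 32 and 4 CG. Of the 10 genes, 8 had an entry, with 14 starts in all, and NNMT and MTRR had none. MAT2A had 43 CG, AHCY between 19 and 39 at its 3 starts, MTR 21 and 20, and MAT2B 1 and 30. The motif TGATGNAA, the shape of the amino acid response element bound by ATF4, was searched on both strands and was found in none of the 14 windows and in 3.62% of all promoters, which says only that these letters are not in those windows.

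CBS had 77.92, 60.73 and 55.87 CPM in the controls, 24.28, 20.89 and 20.79 CPM with decitabine and 18.28, 16.18 and 19.80 CPM with decitabine plus SAM. All 6 treated libraries were below the lowest control, and the values of decitabine plus SAM were all below those with decitabine. Decitabine lowered CBS by a log2 fold change of -1.56 ± 0.12 (2.95-fold lower, adjusted p = 8.91e-08), and decitabine plus SAM by -1.84 ± 0.12 (3.58-fold lower, adjusted p = 2.2e-08). Between the treatments it was -0.28 (95% interval -0.55 to -0.01), which did not pass the correction (adjusted p = 0.145).

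GENCODE 44 lists an artifactual duplicate of CBS elsewhere on chromosome 21 (chr21:6444869-6467513), and 35.1% of the 31-base stretches of CBS occur in it. The duplicate held between 0 and 17.7 counts per library, against 368 to 1569 for CBS, and with the counts of both summed the log2 fold changes were -1.53 and -1.82 (adjusted p = 1.26e-07 and 3.04e-08).

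CTH had 14.80, 14.91 and 12.14 CPM in the controls, 30.82, 32.40 and 35.12 CPM with decitabine and 26.77, 26.67 and 36.07 CPM with decitabine plus SAM. All treated libraries exceeded the controls, and combination replicate 3 stood above the other two of its group and above all of those with decitabine. CTH was raised by a log2 fold change of 1.23 ± 0.13 under decitabine (2.35-fold, adjusted p = 8.72e-07) and 1.10 ± 0.13 with decitabine plus SAM (2.14-fold, adjusted p = 2.96e-06). Between the treatments it was -0.13 (95% interval -0.39 to 0.12, adjusted p = 0.474).

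The order of the transsulfuration enzymes was reversed in the treated samples. Per kilobase of transcript, CBS stood at 26.0 CPM in the controls and CTH at 6.68 CPM, while CTH stood at 15.7 and CBS at 8.81 CPM with decitabine, and at 14.3 and 7.25 CPM with decitabine plus SAM. The ratio of CTH to CBS lay between 0.227 and 0.293 in the controls (0.260 ± 0.033), between 1.52 and 2.02 under decitabine (1.79 ± 0.26) and between 1.75 and 2.18 with decitabine plus SAM (1.96 ± 0.21, SD, n = 3). Every treated library had a ratio above 1 and every control one below it, and the treated groups overlapped.

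**Figure D3:**
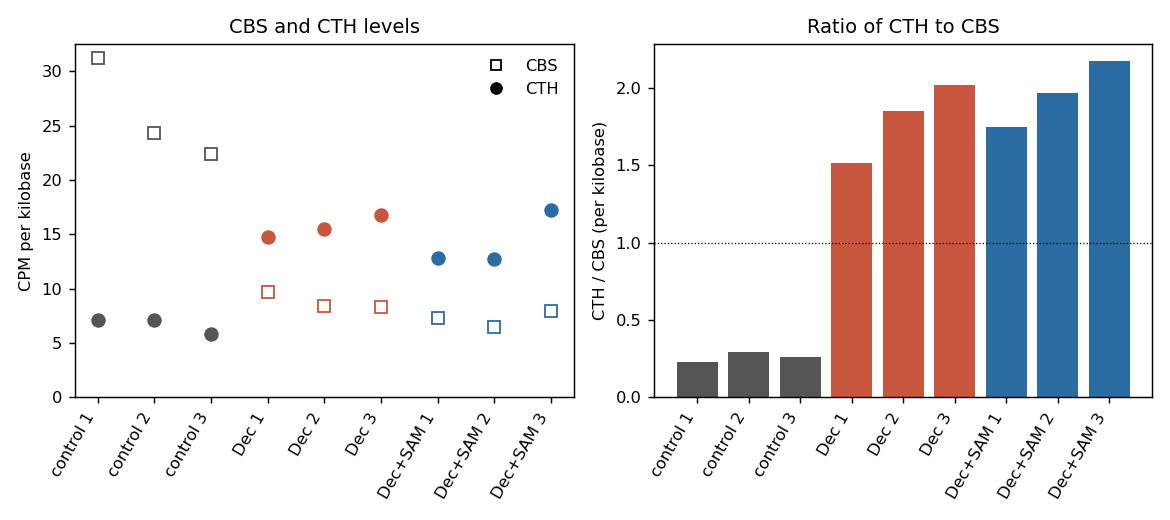
Left, CPM per kilobase of transcript of CBS (open squares) and CTH (filled circles) in each of the 9 libraries, and right, the ratio of CTH to CBS as bars from 0 with a dotted line at 1. The controls (grey) lie between 0.227 and 0.293, and the libraries with decitabine (red) and decitabine plus SAM (blue) lie between 1.52 and 2.18.

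Set in order by CPM per kilobase, the controls ran AHCY (273.4), MAT2A (175.5), MAT2B (35.9), CBS (26.0), MTRR (17.3), NNMT (9.99), CTH (6.68), MTR (3.94), GNMT (0.215) and BHMT2 (0.0205), and no neighbours in this order overlapped. With decitabine CTH moved to the fourth place, followed by NNMT and MTRR, which overlapped, then CBS, MTR, BHMT2 and GNMT. With decitabine plus SAM the order was the same, and CTH, NNMT and MTRR at 14.3, 12.9 and 11.9 overlapped with their neighbours. The summed level of all 10 genes was 1353 ± 12 CPM in the controls, 818.1 ± 60.5 CPM with decitabine and 769.6 ± 32.4 CPM with decitabine plus SAM, of which MAT2A and AHCY made up 72.7% to 81.2%.

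A further 44 genes around the pathway, in 4 lists, were examined in the same fit, and 40 of them were tested. MAT1A, BHMT, AS3MT and INMT did not pass the filter, and PNMT and CDO1, with 6 and 0 counts over the controls, passed it through the treated libraries. With decitabine, 9 of the 40 rose and 18 fell (median log2 fold change -0.17), and with decitabine plus SAM 11 rose and 19 fell (median -0.19), shares to be read against the backgrounds of 68.8% and 67.2%. Between the treatments, 5 were higher and 6 were lower with decitabine plus SAM (median 0.02, background 15.7%).

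Among the other genes of the cycle, decitabine lowered ADK, AHCYL2 and METTL16, and decitabine plus SAM lowered these 3 and AHCYL1. ADK, which removes the adenosine that AHCY releases, had the greatest fall in both comparisons, from 291.0 CPM to 152.7 and 143.7 CPM (log2 fold change -0.93 and -1.02, adjusted p = 6.06e-08 and 2.64e-08). METTL16, which methylates the MAT2A transcript and was singled out after its values were seen, went from 45.0 to 24.0 and 29.6 CPM (-0.91 and -0.60, adjusted p = 1.81e-06 and 8.28e-05). AHCYL1, a relative of AHCY without its activity, was 0.23 lower on the log2 scale with decitabine plus SAM than with decitabine (-0.23, adjusted p = 0.0419).

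Of 9 genes for the uptake, processing or use of cobalamin, not all of which serve MTR, decitabine raised TCN2 and lowered ABCD4, MMAB and MMADHC. Decitabine plus SAM raised CD320, MMACHC and TCN2 and lowered MMAB and MMADHC. TCN2, the plasma carrier of cobalamin, and CD320, the receptor that takes up this carrier, differed between the treatments in opposite directions. TCN2 had 2.632, 2.601 and 3.159 CPM in the controls, 7.53, 8.73 and 9.70 CPM with decitabine and 4.70, 4.62 and 5.71 CPM with decitabine plus SAM. All groups were apart, with log2 fold changes of 1.63 and 0.84 against the controls (adjusted p = 7.07e-07 and 0.000466) and -0.79 ± 0.15 between the treatments (adjusted p = 0.00484). CD320 had 206.6, 206.6 and 194.5 CPM in the controls, 176.9, 179.8 and 186.9 CPM with decitabine and 269.2, 245.9 and 206.4 CPM with decitabine plus SAM. It was 0.41 ± 0.09 higher on the log2 scale with decitabine plus SAM than with decitabine (adjusted p = 0.00766). Its change against the controls (0.25, adjusted p = 0.0203) was lost without combination replicate 1 (0.15, adjusted p = 0.127), combination replicate 2 (0.23, adjusted p = 0.0698) or control replicate 3 (0.21, adjusted p = 0.0819). MMAB, which makes adenosylcobalamin, fell most in both comparisons (-1.34 and -1.44, adjusted p = 3.31e-09 and 1.72e-09). MMAA, which delivers that cofactor, was 0.51 lower with decitabine plus SAM than with decitabine (log2 fold change -0.51, adjusted p = 0.0377).

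The list of methyltransferases that also consume SAM, most of them acting on small molecules, held 12 tested genes. Of these, decitabine raised HNMT and PNMT and lowered COQ3, COQ5, GAMT, ICMT, PEMT and TPMT. Decitabine plus SAM raised CARNMT1, HNMT and PNMT and lowered the same genes but TPMT. Between the treatments, 4 were higher with decitabine plus SAM (CARNMT1, GAMT, ICMT and TPMT), and no gene of this list was called as lower, where 7.67% of all genes were called as higher and 8.02% as lower. Without decitabine replicate 2 or combination replicate 2, none of the 4 was called. GAMT, which makes creatine, a major use of SAM in mammals, had 61.97, 53.88 and 52.28 CPM in the controls, 12.01, 11.54 and 11.90 CPM with decitabine and 16.76, 18.53 and 13.81 CPM with decitabine plus SAM. It fell by 2.24 on the log2 scale with decitabine (adjusted p = 6.37e-10) and by 1.78 with decitabine plus SAM (adjusted p = 5.11e-09), the greatest falls of the list, with a difference of 0.47 ± 0.11 (adjusted p = 0.0135). TPMT, which methylates thiopurine drugs, had 56.1 ± 2.02 CPM in the controls, 46.8 ± 2.24 CPM with decitabine and 57.6 ± 2.38 CPM with decitabine plus SAM, and the difference between the treatments was 0.30 ± 0.07 (adjusted p = 0.0133). CARNMT1, which methylates carnosine, and ICMT, which methylates prenylated proteins, differed by 0.35 (adjusted p = 0.0178) and 0.23 (adjusted p = 0.0374). PNMT, which makes adrenaline, rose most of this list but from 6 counts over the controls to 66 with decitabine and 74 with decitabine plus SAM, ratios of 9.36 (95% counting interval 4.08 to 26.4) and 10.8 (4.72 to 30.3).

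Downstream of CTH, 14 genes of cysteine use and sulfur oxidation were tested. Decitabine raised CDO1, CSAD, GCLC, GCLM and TST and lowered ETHE1, GOT1, GOT2, GSS, MPST and SUOX, and decitabine plus SAM moved the same genes in the same directions and also lowered KYAT1 and SQOR. With decitabine, GCLC (0.21, adjusted p = 0.0367) and GCLM (0.18, adjusted p = 0.0426) were close to the threshold. The call of GCLC was lost without control replicate 2 or 3, decitabine replicate 2 or 3 or combination replicate 2 (0.16 to 0.20, adjusted p = 0.0568 to 0.138). That of GCLM was lost without control replicate 1 or 2, decitabine replicate 2 or 3 or combination replicate 1 or 2 (0.12 to 0.18, adjusted p = 0.0541 to 0.192). CDO1, which oxidises cysteine on the way to taurine, had no count in any control, 15, 26 and 21 counts with decitabine and 23, 14 and 14 counts with decitabine plus SAM. Against a floor of 3 counts over the controls it was at least 17.6-fold and at least 14.8-fold higher. GOT2, the mitochondrial aspartate aminotransferase, fell most with decitabine, from 590.8 to 300.2 CPM (log2 fold change -0.98, adjusted p = 9.12e-08), and SUOX, sulfite oxidase, fell most with decitabine plus SAM, from 37.3 to 17.9 CPM (-1.06, adjusted p = 2.71e-06). ETHE1, a mitochondrial persulfide dioxygenase, and GOT1, the cytosolic aspartate aminotransferase, were lower with decitabine plus SAM than with decitabine (-0.38, adjusted p = 0.0352, and -0.24, adjusted p = 0.0449).

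**Figure D4:**
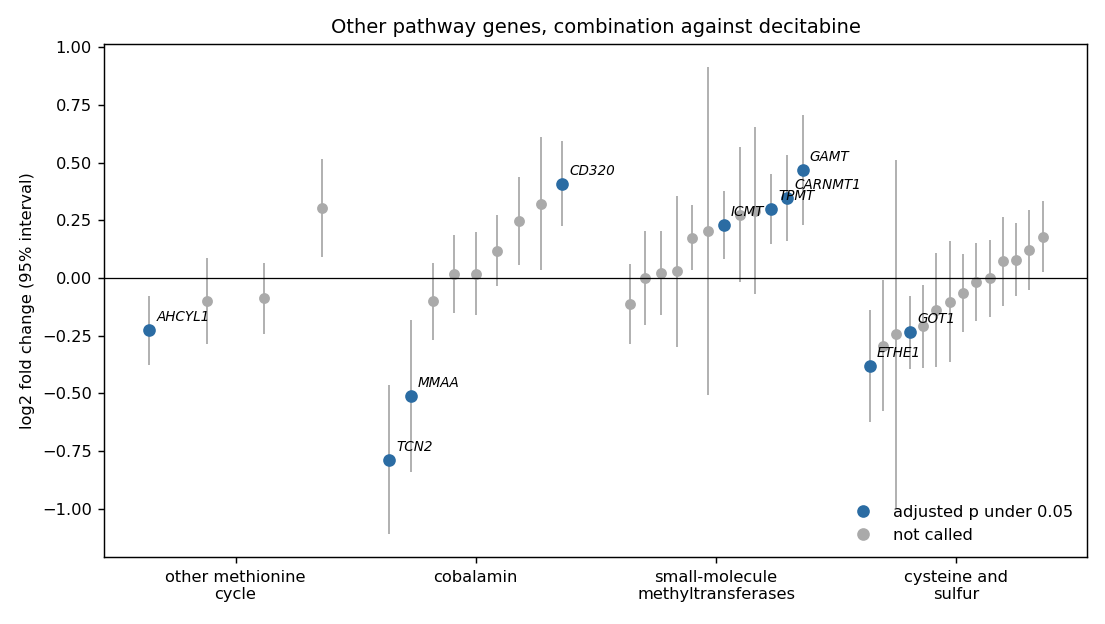
Log2 fold change between decitabine plus SAM and decitabine (y axis, with 95% intervals as vertical lines) of tested genes of the 4 further lists, ordered by value within each list, with the called genes in blue and named. TCN2 lies lowest at -0.79, and GAMT and CD320 lie highest at 0.47 and 0.41.

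Of the 11 calls between the treatments, those of TCN2 and CD320 held whichever library was left out, and 8 were lost without decitabine replicate 2 and also without combination replicate 2, which left 3 calls each time. The count was 7 without decitabine replicate 1 or control replicate 2, and 6 without combination replicate 1.

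As a description of how common these profiles were, the 10 genes were compared with 10098 protein-coding genes outside the lists with a mean of at least 10 CPM, by the root mean square difference of log2 CPM relative to the control mean over the 9 libraries. AHCY lay closest to NUBP1 (0.039) and EEF1A1 (0.041), MAT2A to CAMK2G (0.085) and RHOT2 (0.097), MAT2B to SLC35C2 (0.045), MTR to CHD6 (0.064) and SKIC3 (0.065), MTRR to CUTC (0.057) and MRPL42 (0.058) and NNMT to OSGIN1 (0.044) and AIFM2 (0.072). CBS lay closest to PHEX (0.125) and CEP70 (0.126), CTH to LGMN (0.098) and LEPROT (0.105), BHMT2 to PDZK1 (0.240) and SYT11 (0.250) and GNMT to ZSCAN31 (0.337) and PGM2L1 (0.360). Within a difference of 0.2 there were 760 genes for AHCY, 719 for MAT2A, 2120 for MAT2B, 480 for MTR, 1437 for MTRR and 1176 for NNMT, but 21 for CBS, 81 for CTH and none for BHMT2 or GNMT. The difference was taken over single libraries, so scatter between the replicates of a gene counts in it. The CBS controls were spread (77.92, 60.73 and 55.87 CPM), which by itself lowers the number of genes close to CBS. BHMT2 and GNMT themselves lay below the limit of 10 CPM, so that genes of their low level were not searched. For these genes the search cannot say how common their profiles were.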

How the data were processed

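RNA was sequenced on a BGISEQ-500, and per the labels the authors trimmed reads with Trim Galore 0.6.4, used kallisto for quantification and deposited its output summed to Ensembl genes, as estimated counts that are not normalized. The annotation release and the use of strand are not given in the sources used here. The deposited log2 CPM values were not used. Nothing says that replicates came from separate cultures, so p-values measure the spread between these samples. Of 60617 identifiers, 60357 matched GENCODE 44.

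Counts were rounded, filtered with filterByExpr, scaled with TMM and fitted with edgeR 4.0.16 (R 4.3.3) with 1 mean per group over 9 libraries. The quasi-likelihood test was adjusted by the Benjamini-Hochberg method over the 18532 genes tested, at a threshold of 0.05 without a limit on the fold change, and genes past it are called. Standard errors and 95% intervals are those of this fit. The study's own text names voom and limma, which were run as an alternative (limma 3.58.1), beside DESeq2 1.42.0, other scalings and filters, the 6 libraries compared alone, the replicate block and fits without each library. CPM per kilobase used the Ensembl canonical transcript. Ratios of low counts have exact 95% intervals.

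The genes and lists were chosen with earlier results of these data known. Named were all 10 genes, every listed gene called between the treatments, the greatest rise and fall per list against the controls, overlapping or duplicated loci, and the 2 closest profiles per gene. Results on a few single genes that this rule or the lists include are not reported here, also in the plots, but are counted in the totals. Pairs of libraries within a group differed by more than sampling noise (chi-square per degree of freedom 5.86 to 23.5). In simulated data, 200 genes changed in each of 5 draws (2-fold and 4-fold against the controls, 18084 to 18164 genes tested). They changed in opposite directions in the treatments, so that the treatments differed by more than these folds. The fit recovered 85.0% of them for decitabine against control, 88.1% for decitabine plus SAM against control and 99.3% between the treatments. Of the calls, 4.97%, 4.66% and 5.27% were false. The simulation held far fewer changed genes than the 68.8% called with decitabine. It says nothing of differences between the treatments as small as the 1.32-fold of MTR. Promoter sequences are from RefSeq (GRCh38.p14), trimmed to stretches without exons. Tables and plots were made with matplotlib 3.10.9, scipy 1.17.1, numpy 2.4.6 and pandas 2.3.3 in Python 3.11.15.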

Additional observations from a re-analysis of the deposited data

How the results depend on the processing

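Over all alternatives, no called change of the 10 genes turned its direction. Between the treatments, where neither was called, AHCY (-0.01) ranged from -0.07 to 0.07 and NNMT (0.11) from -0.01 to 0.18 when 1 library was left out. Of the values recomputed for them, 490 kept their side of the threshold, 16 lost the call and 2 gained one. The number of the 10 genes called between the treatments ranged from 0 to 1 when 1 library was left out, and was 0 without decitabine replicate 1, decitabine replicate 2 or combination replicate 1. The number of further pathway genes called between the treatments ranged from 3 to 11 when 1 library was left out, and was 7 with only the 6 libraries compared. The cause was not tested. With scaling by library size alone, the calls of MAT2B, MTR, AHCYL2, MMADHC, TPMT, MPST and GOT1 with decitabine, those of AHCYL1, MMADHC, ICMT, MPST, SQOR and KYAT1 with decitabine plus SAM and that of ICMT between the treatments were lost, and ABCD4 turned from lower to a log2 fold change of 0.0117 (adjusted p = 0.898). NNMT with decitabine was not called by voom and limma (adjusted p = 0.0558) or without a filter (0.0912), GCLC and GCLM were not called without a filter (0.131 and 0.241), and GNMT with decitabine plus SAM was not called by DESeq2 (0.0731). GNMT was called with decitabine under library size alone (1.27, adjusted p = 0.0384) and was not tested at a mean of at least 10 counts.

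Replicate numbers are shared between the groups, and deviations from the group means correlated by -0.02 to 0.23 over the 9 same-numbered pairs. The 2 pairs over 0.1 were decitabine and combination replicate 1 (0.233) and decitabine and combination replicate 3 (0.229). Decitabine replicate 1 with combination replicate 3, and decitabine replicate 3 with combination replicate 1, each gave -0.22. The study's methods name no pairing, and whether these treated samples were paired was not tested. With the replicate block, 9, 10 and 1 of the 10 genes were called, as without it, and 27, 31 and 13 of the further genes. Of all genes, 1766 were higher and 1890 lower between the treatments with the block, against 1421 and 1487 without it. Between the treatments, 1000 and 1174 were called with the 6 libraries alone, 381 and 480 when combination replicate 2 was left out, 408 and 596 when decitabine replicate 2 was, 591 and 773 for combination replicate 1, and 846 and 937 for decitabine replicate 1. With library size alone, 8849 rose and 3746 fell with decitabine, against 6729 and 6030 with TMM, and 8695 and 3857 against 6647 and 5799 with decitabine plus SAM. GNMT and BHMT2 in the controls, CDO1 and PNMT were limited by counts. With 3 libraries per group, a gene that was not called may still differ by an amount within its interval.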
